A study of Homo sapiens with 60 samples.

Results

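The 27 genes described here encode the enzymes of cholesterol synthesis and the proteins that sense and regulate it. They were taken from a fixed list of symbols, which was chosen with earlier results of these data known. All 27 were found among the 60675 Ensembl gene IDs of the count table. All 27 passed the filter on low counts in each fit, so none is missing from the counts below. By role they are 5 enzymes that make and activate mevalonate (ACAT2, HMGCS1, MVK, PMVK, MVD), 3 that make isoprenoid diphosphates (IDI1, FDPS, GGPS1), 3 that lead through squalene to lanosterol (FDFT1, SQLE, LSS) and 9 that turn lanosterol into cholesterol (CYP51A1, TM7SF2, LBR, MSMO1, NSDHL, HSD17B7, EBP, SC5D, DHCR7). The other members are a sterol carrier and a ubiquitin ligase (STARD4, MYLIP) and 5 sensor and regulator genes (INSIG1, INSIG2, SREBF1, SREBF2, SCAP).

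RNA was sequenced from A549, an established line from a human lung carcinoma of the non-small cell type, after 24 h with an herbal extract or DMSO vehicle. The water extracts were of Sayeok-tang and Bojungikgi-tang, both formulas of several herbs, each at 20, 100 and 500 µg/mL, with 3 libraries per dose of Sayeok-tang and 2 of Bojungikgi-tang. The other extracts were made in ethanol. Dried ginger (Zingiberis Rhizoma), fresh ginger (Zingiberis Rhizoma Recens) and Pinellia (Pinelliae Tuber) had 3 libraries at each of these doses. Scutellaria (Scutellariae Radix) had 3 libraries at each of 7.6, 38 and 190 µg/mL. Coptis (Coptidis Rhizoma, at 4.4, 22 and 110 µg/mL) and Zizyphus (Zizyphi Fructus, at 20, 100 and 500 µg/mL) had 1 library per dose, and 3 vehicle libraries completed the set of 60. Per the series text, extracts that were toxic below 500 µg/mL were given at their IC20, the concentration that inhibits the cells by 20%, and at dilutions of it, which by the doses applies to Scutellaria and Coptis. Library totals ran from 17513485 to 38541686 counts.

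The libraries carried the markers of an epithelial lung line. KRT8 ran from 1935 to 3672 CPM (counts scaled to library size) and the A549-type enzyme ALDH1A1 from 5522 to 7152 CPM. Of the other epithelial markers, EPCAM was low, at 3.84 to 6.54 CPM. The leukocyte marker CD3E was at 0 in 60 libraries and PTPRC at 0 in 53, the endothelial markers PECAM1 and VWF reached at most 0.123 and 0.133 CPM, and the fibroblast marker COL1A2 was at 0 in 44, while COL1A1 ran from 17.4 to 36.0 CPM. Whether replicates came from separate cultures is not stated, so the p-values weigh differences against a spread that may be technical only. The vehicle and extract libraries carry different set numbers. A DMSO concentration is given only for vehicle cells, as 0.1% in the sample labels and 2% in the series text. Handling or solvent and treatment therefore cannot be told apart in any comparison with vehicle. Comparisons between doses of an extract do not involve the vehicle levels.

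Cholesterol is built from acetyl-CoA through mevalonate, isoprenoid diphosphates, squalene and lanosterol. When sterols in the endoplasmic reticulum run low, the escort protein SCAP carries the precursor of SREBP2 (gene SREBF2) to the Golgi, where it is cut, and the released transcription factor raises nearly all genes of the pathway. INSIG1 and INSIG2 hold SCAP back when sterols are plentiful, and INSIG1 is itself an SREBP target. SREBP1 (gene SREBF1) acts mainly on fatty acid genes, and SREBPs act on promoters together with the factor NF-Y, which binds the letters CCAAT.

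Promoters of 7 members, chosen with their results known, are printed from 200 to 21 bases before a RefSeq start of the gene. HMGCS1 and DHCR7 have 2 RefSeq promoters each, and all CCAAT matches found for these genes lay in the printed one. They are from GRCh38.p14 and read 5′ to 3′ on the gene's strand. Of these members, PMVK was called in no comparison of doses. Capitals mark CCAAT boxes (CCAAT, or ATTGG where the box lies on the other strand) and, in SREBF2, the sterol regulatory element letters TCACNCCAC.
HMGCS1, chr5:43313433-43313612, minus strand: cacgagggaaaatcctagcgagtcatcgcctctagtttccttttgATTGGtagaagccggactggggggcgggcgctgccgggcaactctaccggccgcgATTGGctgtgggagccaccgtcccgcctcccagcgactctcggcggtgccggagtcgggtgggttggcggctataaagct
MVK, chr12:109573594-109573773, plus strand: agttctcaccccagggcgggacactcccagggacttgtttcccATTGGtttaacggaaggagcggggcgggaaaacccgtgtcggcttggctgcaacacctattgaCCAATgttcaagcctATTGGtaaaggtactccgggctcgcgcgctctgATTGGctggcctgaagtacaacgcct
PMVK, chr1:154936740-154936919, minus strand: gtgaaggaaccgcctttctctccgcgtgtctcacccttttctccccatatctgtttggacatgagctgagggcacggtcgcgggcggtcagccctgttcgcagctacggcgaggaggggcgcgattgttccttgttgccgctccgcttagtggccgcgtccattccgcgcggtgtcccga
MSMO1, chr4:165327469-165327648, plus strand: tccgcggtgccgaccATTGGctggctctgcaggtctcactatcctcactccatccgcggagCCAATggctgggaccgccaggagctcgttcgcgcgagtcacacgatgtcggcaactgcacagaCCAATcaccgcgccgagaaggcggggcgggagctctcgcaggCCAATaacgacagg
DHCR7, chr11:71448414-71448593, minus strand: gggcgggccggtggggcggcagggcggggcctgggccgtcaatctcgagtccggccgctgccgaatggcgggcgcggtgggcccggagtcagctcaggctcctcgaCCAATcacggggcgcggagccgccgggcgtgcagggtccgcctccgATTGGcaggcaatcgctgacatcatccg
INSIG1, chr7:155297678-155297857, plus strand: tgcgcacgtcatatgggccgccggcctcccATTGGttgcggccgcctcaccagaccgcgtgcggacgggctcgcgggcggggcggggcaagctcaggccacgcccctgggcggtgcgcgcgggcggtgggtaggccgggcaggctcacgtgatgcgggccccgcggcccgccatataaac
SREBF2, chr22:41832905-41833084, plus strand: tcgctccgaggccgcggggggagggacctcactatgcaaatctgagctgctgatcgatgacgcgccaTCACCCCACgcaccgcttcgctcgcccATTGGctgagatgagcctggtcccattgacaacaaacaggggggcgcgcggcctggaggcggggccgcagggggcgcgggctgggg

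The RefSeq promoter table held 24 of the 27 members; ACAT2, FDFT1 and SQLE were not matched. Both motifs were searched on both strands in the 250 bases before each start, and they share no letters where they occur in SREBF2. CCAAT was found for 18 of 24 members, which is 75.0%, against 37.0% of 27305 genes in the table. MVK and NSDHL held 5 boxes each and MSMO1 4. PMVK, CYP51A1, LBR, INSIG2, SREBF1 and SCAP held none in these windows. Of these, CYP51A1, LBR, INSIG2 and SREBF1 were each called in a comparison of high and low dose. SC5D, which held a box, was called in none, and whether boxes go with the changes was not tested. TCACNCCAC was found in 1 of 24 members, SREBF2, at 133 bases before the start, against 1.09% of genes. The matches are a description of letters and not of binding.

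Per length of transcript, HMGCS1, which makes HMG-CoA, was the most abundant member in vehicle cells. On a transcript scale (TPM) computed from counts and exonic length, it stood at 135.5 ± 9.03 (SD, n = 3), followed by the lanosterol demethylase CYP51A1 at 104.5 ± 3.72 and the squalene epoxidase SQLE at 92.5 ± 3.22. INSIG1 stood at 31.2 ± 1.60 and its relative INSIG2 at 9.66 ± 0.529. The lowest level was that of the sterol reductase TM7SF2, at 4.92 ± 0.262, just under the ubiquitin ligase MYLIP at 5.32 ± 0.613, and the spreads of these last genes overlap. LBR, which carries out the same reductase step as TM7SF2, stood at 87.3 ± 2.35. All later values are CPM on one scale over the 60 libraries, and log2 changes ± SE, with adjusted p-values, come from edgeR's quasi-likelihood test over all genes of a fit. A call means an adjusted p below 0.05.

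Most of the pathway was higher at the high dose of Sayeok-tang. Against its low dose, 19 of the 27 members were higher and 1 was lower, where 3.82% of all 16721 genes tested were higher and 3.77% lower. Their median log2 change was 0.23, against 0.00 over all genes. By role, 4 of 5 mevalonate enzymes, 2 of 3 isoprenoid enzymes, 3 of 3 enzymes from squalene to lanosterol, 7 of 9 sterol enzymes, STARD4, INSIG1 and SREBF2 rose, and MYLIP fell. The libraries of the 2 doses did not overlap for 21 members, 20 of them higher at the high dose, where 12.9% of all genes were without overlap and higher. In such bulk libraries, fewer cells of a type and less RNA per cell cannot be told apart.

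The squalene synthase FDFT1, the first enzyme committed to sterols, was at 149, 146 and 142 CPM at the high dose of Sayeok-tang, against 113, 114 and 112 CPM at the low dose. Every high-dose library was above every low-dose library, and FDFT1 rose by 0.36 ± 0.03 (adjusted p = 1.85e-11). DHCR7, the reductase that makes cholesterol from its direct precursor, was at 120.0, 130.2 and 119 CPM at the high dose, against 90.2, 94.2 and 89.3 CPM at the low dose, a change of 0.43 ± 0.04 (adjusted p = 7.12e-11). Replicate 2 was the highest of the high-dose libraries for this gene. The lanosterol demethylase CYP51A1 was at 148, 153 and 152 CPM at the high dose, against 118, 117 and 117 CPM at the low dose, and rose by 0.36 ± 0.03 (adjusted p = 9.82e-11). The methylsterol oxidase MSMO1 was at 54.4, 56.0 and 54.9 CPM at the high dose, against 40.0, 39.9 and 40.0 CPM at the low dose. Both groups were tight, and the change of 0.46 ± 0.04 (adjusted p = 6.08e-10) was the largest of the members in this comparison. The rise was seen at the high dose alone, for MSMO1 was at 40.7, 41.6 and 42.1 CPM in vehicle, then 40.0, 39.9 and 40.0 at the low, 40.1, 42.1 and 42.0 at the medium and 54.4, 56.0 and 54.9 CPM at the high dose.

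Among the regulators, INSIG1 was at 47.1, 51.0 and 47.3 CPM at the high dose of Sayeok-tang, against 36.5, 35.8 and 37.1 CPM at the low dose, and rose by 0.41 ± 0.05 (adjusted p = 3.18e-08). SREBF2, which encodes SREBP2, was at 124, 129 and 122 CPM, against 104, 108 and 108 CPM at the low dose, and rose by 0.23 ± 0.04 (adjusted p = 1.75e-05). The groups did not overlap for either gene. SREBF1 did not pass the test, at -0.01 ± 0.03 (adjusted p = 0.926), and neither INSIG2 (0.10 ± 0.08) nor SCAP (-0.06 ± 0.04) passed it. MYLIP, a ligase that is induced through liver X receptors and limits lipoprotein uptake, was the 1 member that fell. It fell by 0.38 ± 0.11 (adjusted p = 0.0265) to 4.53, 4.61 and 4.41 CPM at the high dose, against 5.70, 6.53 and 5.45 CPM at the low dose. With DESeq2 and in one fit of all libraries the members lower were 0 and those higher 15 and 18, so this call was lost. It was also lost without any single library of the 2 doses other than low-dose replicate 3.

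At the high dose of Sayeok-tang, 16 members were above vehicle and 2 below, where 9.39% of all genes were higher and 9.53% lower. SQLE was at 162, 164 and 157 CPM at the high dose, against 129.9, 127 and 126 CPM in vehicle, and rose by 0.33 ± 0.03 (adjusted p = 2.10e-10). The members that fell were PMVK, the phosphomevalonate kinase (-0.28 ± 0.06), and GGPS1, which makes geranylgeranyl diphosphate (-0.16 ± 0.06, adjusted p = 0.035). The members lower numbered 1 in place of 2 with DESeq2, without any single vehicle library and without high-dose replicate 1 or 3. HSD17B7, a ketosterol reductase, rose by 0.30 ± 0.07, with the caution that its pseudogene HSD17B7P2 held 9.84% as many counts, so reads may be split between them.

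**Figure D1:**
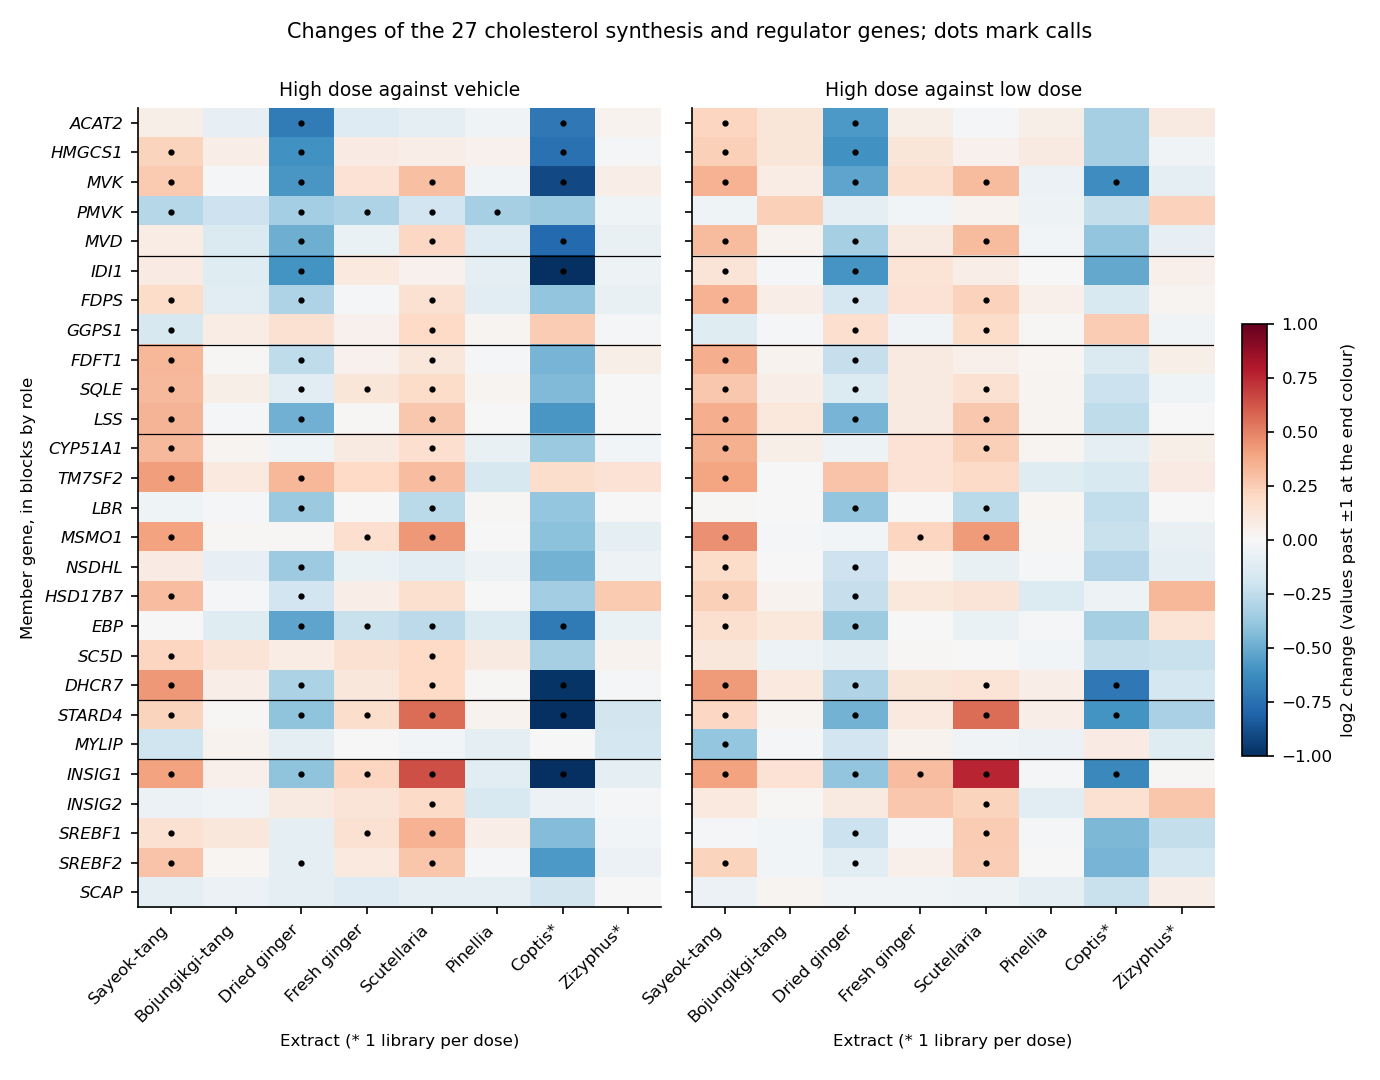
Log2 changes of the 27 members (rows, in blocks by role) at the high dose of each of 8 extracts (columns), against vehicle on the left and against the low dose of the same extract on the right. Red is higher and blue lower at the high dose, and dots mark an adjusted p under 0.05 or, for Coptis and Zizyphus with 1 library per dose, a change past 1.5-fold; the Sayeok-tang and Scutellaria columns are mostly red, the dried ginger and Coptis columns mostly blue.

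Bojungikgi-tang, the other water extract, gave no call at the same dose in the main edgeR fit. Against its low dose 0 members were called by edgeR (4 of 27 at an unadjusted p under 0.05, and 0 by DESeq2), where 0.257% of all genes were higher and 0.455% lower. Against vehicle 0 were called by edgeR (7 at an unadjusted p under 0.05, 0 by DESeq2), where 1.39% of all genes were higher and 2.33% lower. Without vehicle replicate 1 this second count became 2. It also became 2 in edgeR with a replicate block, where SREBF1 (adjusted p = 0.0467) and FDPS (adjusted p = 0.0446) passed. INSIG1 was at 37.6 and 38.4 CPM at the high dose, against 33.2 and 35.5 CPM at the low dose, a difference of 0.14 ± 0.06 that missed the threshold (adjusted p = 0.369). HMGCS1 was at 209 and 219.7 CPM at the high dose, against 187 and 207 CPM at the low dose, so its libraries did not overlap, yet its difference of 0.12 ± 0.04 missed as well (adjusted p = 0.276). With 2 libraries per dose the comparison had less replication than those of the other tested extracts.

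Set directly beside Bojungikgi-tang at 500 µg/mL, Sayeok-tang was higher in 15 members and lower in 1, where 1.09% of all genes were higher and 0.957% lower. FDFT1 was at 149, 146 and 142 CPM with Sayeok-tang, against 115 and 119 CPM with Bojungikgi-tang, a difference of 0.32 ± 0.03 (adjusted p = 3.28e-08). The 3 members from squalene to lanosterol differed by 0.27 to 0.35, and 5 of 9 sterol enzymes were higher. GGPS1 was the member that was lower, at -0.23 ± 0.06 (adjusted p = 0.032). It was not called with DESeq2, with a replicate block, or without any single library of the 2 groups other than Sayeok-tang replicate 2, where the members lower numbered 0. Without Bojungikgi-tang high-dose replicate 2 the count of 16 calls became 10. A test of whether the change between high and low dose differed called 6 members, all with the more positive change in Sayeok-tang, where 0.161% of all genes were called in that direction and 0.114% in the other. These were FDPS (0.28 ± 0.05), FDFT1 (0.33 ± 0.05), CYP51A1 (0.30 ± 0.05), MSMO1 (0.48 ± 0.07), DHCR7 (0.33 ± 0.06) and SREBF2 (0.26 ± 0.06).

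With dried ginger most members were lower at the high dose. At its high dose 18 of 27 members were lower and 1 was higher than at its low dose, where 16% of all 16628 genes were lower and 16.8% higher. The median of the members was -0.22, against 0.00 over all genes. The fall covered 4 of 5 mevalonate enzymes, 2 of 3 isoprenoid enzymes, 3 of 3 enzymes from squalene to lanosterol, 5 of 9 sterol enzymes, STARD4, INSIG1, SREBF1 and SREBF2, and GGPS1 rose by 0.17 ± 0.06 (adjusted p = 0.0302). The rise of GGPS1 was not called with DESeq2 or without high-dose replicate 2, low-dose replicate 1 or low-dose replicate 2, where the members higher numbered 0. The libraries of the 2 doses did not overlap for 22 members, 21 of them lower at the high dose, where 22.3% of all genes were without overlap and lower.

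HMGCS1 was at 129, 132 and 140.5 CPM at the high dose of dried ginger, against 203, 196 and 213 CPM at the low dose, and fell by 0.60 ± 0.04 (adjusted p = 5.15e-12). IDI1, which converts isopentenyl diphosphate to its isomer, was at 49.9, 43.1 and 50.3 CPM at the high dose, against 73.7, 71.4 and 71.3 CPM at the low dose, and fell by 0.59 ± 0.05 (adjusted p = 8.00e-11). These were the largest falls together with the thiolase ACAT2, which was at 21.2, 19.9 and 22.1 CPM, against 30.8, 29.6 and 34.2 CPM at the low dose (-0.57 ± 0.06). The lanosterol synthase LSS was at 28.2, 27.6 and 28.8 CPM at the high dose, against 37.8, 39.1 and 39.8 CPM at the low dose, and fell by 0.46 ± 0.05 (adjusted p = 9.56e-09). LBR, a sterol reductase of the nuclear envelope, was at 113, 108 and 120.1 CPM at the high dose, against 149.9, 152 and 148 CPM at the low dose, and fell by 0.40 ± 0.04 (adjusted p = 3.55e-09). No high-dose library reached a low-dose library for any of these 5 genes.

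The demethylation enzymes CYP51A1 (-0.05 ± 0.04) and MSMO1 (-0.03 ± 0.05) did not pass the test with dried ginger, and whether their changes differ from those of other members was not tested. MSMO1 was at 43.4, 39.4 and 42.4 CPM at the high dose, against 42.9, 42.3 and 42.7 CPM at the low dose, and the libraries overlapped. The regulators INSIG1 and SREBF2 fell, with changes of -0.39 ± 0.05 and -0.11 ± 0.04, and INSIG1 was at 27.7, 27.8 and 27.6 CPM at the high dose, against 36.5, 37.8 and 34.6 CPM at the low dose. The fall was seen at the high dose alone, for INSIG1 was at 35.1, 38.0 and 36.7 CPM in vehicle, 36.5, 37.8 and 34.6 at the low, 36.7, 36.7 and 38.3 at the medium and 27.7, 27.8 and 27.6 CPM at the high dose. Against vehicle the high dose had 18 members lower and 1 higher, where 19.0% of all genes were lower and 20.2% higher. ACAT2 showed the largest fall there, by 0.70 ± 0.06 (adjusted p = 3.03e-10), and TM7SF2 was the member that rose (0.33 ± 0.12, adjusted p = 0.0274). That rise was not called with DESeq2 or without vehicle replicate 1 or 2, where the members higher numbered 0.

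With fresh ginger few members passed the test, and those that moved with dose rose. At its high dose 2 members, INSIG1 and MSMO1, were higher than at its low dose and 0 lower, where 1.72% of all genes were higher and 1.95% lower. INSIG1 was at 42.4, 43.7 and 40.7 CPM at the high dose, against 34.3, 33.7 and 34.4 CPM at the low dose, and rose by 0.31 ± 0.05 (adjusted p = 0.000316). MSMO1 was at 47.7, 47.2 and 44.95 CPM, against 38.7, 41.4 and 40.9 CPM at the low dose, and rose by 0.21 ± 0.05 (adjusted p = 0.00619). The groups did not overlap for either gene. By adjusted p, CYP51A1 and FDPS came next and just missed the threshold, at 0.14 ± 0.04 (adjusted p = 0.0509) and 0.15 ± 0.04 (adjusted p = 0.055). Both passed with DESeq2 (adjusted p = 0.0278 and 0.0359), in one fit of all libraries (adjusted p = 0.00733 and 0.0093) and with a replicate block (adjusted p = 0.0345 and 0.0336), and the members called then numbered 4, 7 and 5. The count of 2 became 1 without high-dose replicate 1 or without low-dose replicate 1, and 5 without low-dose replicate 3, and MSMO1 was lost without either replicate 1 (adjusted p = 0.0506 and 0.0671).

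At the high dose of fresh ginger, 5 members were above vehicle and 2 below, where 6.21% of all genes were higher and 7.16% lower. INSIG1 (0.21 ± 0.05), MSMO1 (0.17 ± 0.05), STARD4 (0.18 ± 0.06), SREBF1 (0.15 ± 0.05) and SQLE (0.12 ± 0.04) rose, and PMVK (-0.31 ± 0.06) and the sterol isomerase EBP (-0.22 ± 0.06) fell. That count of 7 became 4 without vehicle replicate 3, 3 without high-dose replicate 1 and 1 without high-dose replicate 2. Without high-dose replicate 2, INSIG1, MSMO1 and EBP missed the threshold.

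At 500 µg/mL, dried ginger was lower than fresh ginger in 20 members and higher in 0, where 11.3% of all genes were lower and 11.3% higher. HMGCS1 was at 129, 132 and 140.5 CPM with dried ginger, against 211, 213 and 223 CPM with fresh ginger, a difference of -0.69 ± 0.04 (adjusted p = 1.13e-12). IDI1 was at 49.9, 43.1 and 50.3 CPM with dried ginger, against 77.6, 74.5 and 79.9 CPM with fresh ginger (-0.69 ± 0.05). The mevalonate kinase MVK was at 15.8, 15.0 and 15.0 CPM with dried ginger, against 25.2, 26.5 and 23.7 CPM with fresh ginger (-0.72 ± 0.06), and INSIG1 at 27.7, 27.8 and 27.6 CPM with dried ginger, against 42.4, 43.7 and 40.7 CPM (-0.61 ± 0.05). The libraries of the 2 extracts did not overlap for 20 members, all lower with dried ginger, where 19.3% of all genes were without overlap and lower. The change between high and low dose also differed between the extracts in 19 members, all with the more negative change in dried ginger, where 5.67% of all genes were called in that direction and 5.56% in the other. The largest such differences were those of IDI1 (-0.73 ± 0.07), HMGCS1 (-0.72 ± 0.06) and INSIG1 (-0.70 ± 0.08), and the smallest called was that of SREBF2 (-0.16 ± 0.05, adjusted p = 0.0432).

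**Figure D2:**
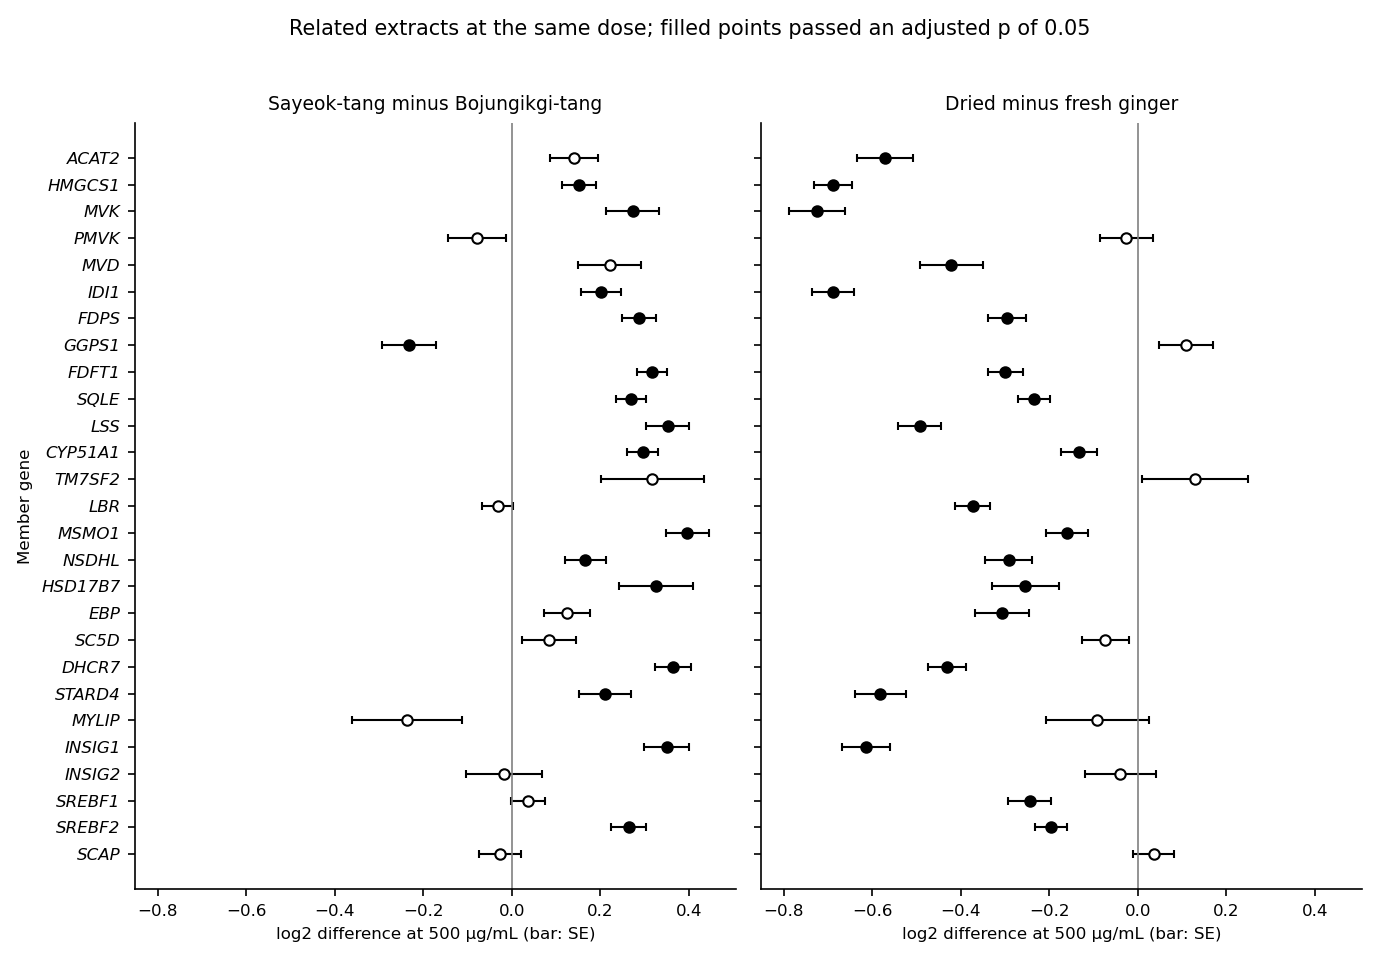
Log2 differences (horizontal axis, bars are SE) of the 27 members between Sayeok-tang and Bojungikgi-tang on the left and between dried and fresh ginger on the right, all at 500 µg/mL. Filled points passed an adjusted p of 0.05: 15 lie right of 0 and 1 left on the left side, and 20 lie left of 0 on the right side, with HMGCS1, MVK and IDI1 farthest from 0.

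With Scutellaria at 190 µg/mL the largest rises were those of INSIG1 and the sterol carrier STARD4. Against 7.6 µg/mL, 14 of 27 members were higher and 1 lower, where 15.5% of all 16582 genes were higher and 15.6% lower. Their median was 0.15, against 0.00 over all genes. By role, 4 of 5 sensor and regulator genes rose, with 2 of 5 mevalonate enzymes, 2 of 3 isoprenoid enzymes, 2 of 3 enzymes from squalene to lanosterol and 3 of 9 sterol enzymes.

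INSIG1 was at 56.6, 59.2 and 55.9 CPM at the high dose of Scutellaria, against 36.5, 33.2 and 32.0 CPM at the low dose, and rose by 0.76 ± 0.05 (adjusted p = 2.96e-15). That was the largest rise of any member in the comparisons with replicates. STARD4, which carries sterols between membranes, was at 42.4, 46.5 and 42.3 CPM at the high dose, against 31.2, 29.1 and 28.9 CPM at the low dose, and rose by 0.56 ± 0.05 (adjusted p = 1.59e-11). MSMO1 was at 54.8, 57.0 and 56.3 CPM, against 41.9, 40.9 and 42.3 CPM at the low dose, and rose by 0.43 ± 0.04 (adjusted p = 1.28e-10). The groups did not overlap for these 3 genes. LBR went against them, at 122, 124 and 121 CPM at the high dose, against 149.5, 148 and 145 CPM at the low dose, and fell by 0.27 ± 0.03 (adjusted p = 2.34e-09).

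The SREBP1 gene SREBF1 and INSIG2, the second retention protein, also rose with Scutellaria. SREBF1 was at 205, 200 and 198 CPM at the high dose, against 160.0, 177 and 169 CPM at the low dose, a rise of 0.26 ± 0.04 (adjusted p = 2.93e-07), with the limit that its exons overlap those of RAI1 on the other strand. INSIG2 rose by 0.22 ± 0.08 (adjusted p = 0.0276) and SREBF2 by 0.25 ± 0.04. The first enzymes of the pathway did not pass, with HMGCS1 at 0.04 ± 0.04 and ACAT2 at -0.02 ± 0.05. Whether Scutellaria and Sayeok-tang differed in these genes was not tested, since they were given at different doses. At the high dose, 17 members were above vehicle and 3 below, where 20.2% of all genes were higher and 20.0% lower. PMVK (-0.19 ± 0.06), EBP (-0.26 ± 0.05) and LBR (-0.27 ± 0.03) were the members that fell. INSIG1 was at 35.1, 38.0 and 36.7 CPM in vehicle, 36.5, 33.2 and 32.0 at the low, 35.9, 35.1 and 31.7 at the medium and 56.6, 59.2 and 55.9 CPM at the high dose, so the rise was seen at the high dose alone.

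With Pinellia no member passed the test between doses. At 500 µg/mL 0 were called against the low dose by edgeR (1 at an unadjusted p under 0.05, 0 by DESeq2), where 0.0603% of all genes were higher and 0.00603% lower. Log2 changes ran from -0.14 to 0.09, and that of HMGCS1, with the lowest p, was 0.09 ± 0.04. HMGCS1 was at 209.8, 214 and 209 CPM at the high dose, against 192, 200 and 203 CPM at the low dose. Against vehicle 0 members were higher and 1 lower, where 3.85% of all genes were higher and 5.08% lower. The 1 call was PMVK, at 21.4, 18.7 and 21.1 CPM with Pinellia, against 25.5, 25.0 and 26.5 CPM in vehicle (-0.33 ± 0.06, adjusted p = 0.00079). This count became 3 without vehicle replicate 1 and 2 without Pinellia high-dose replicate 3.

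**Figure D3:**
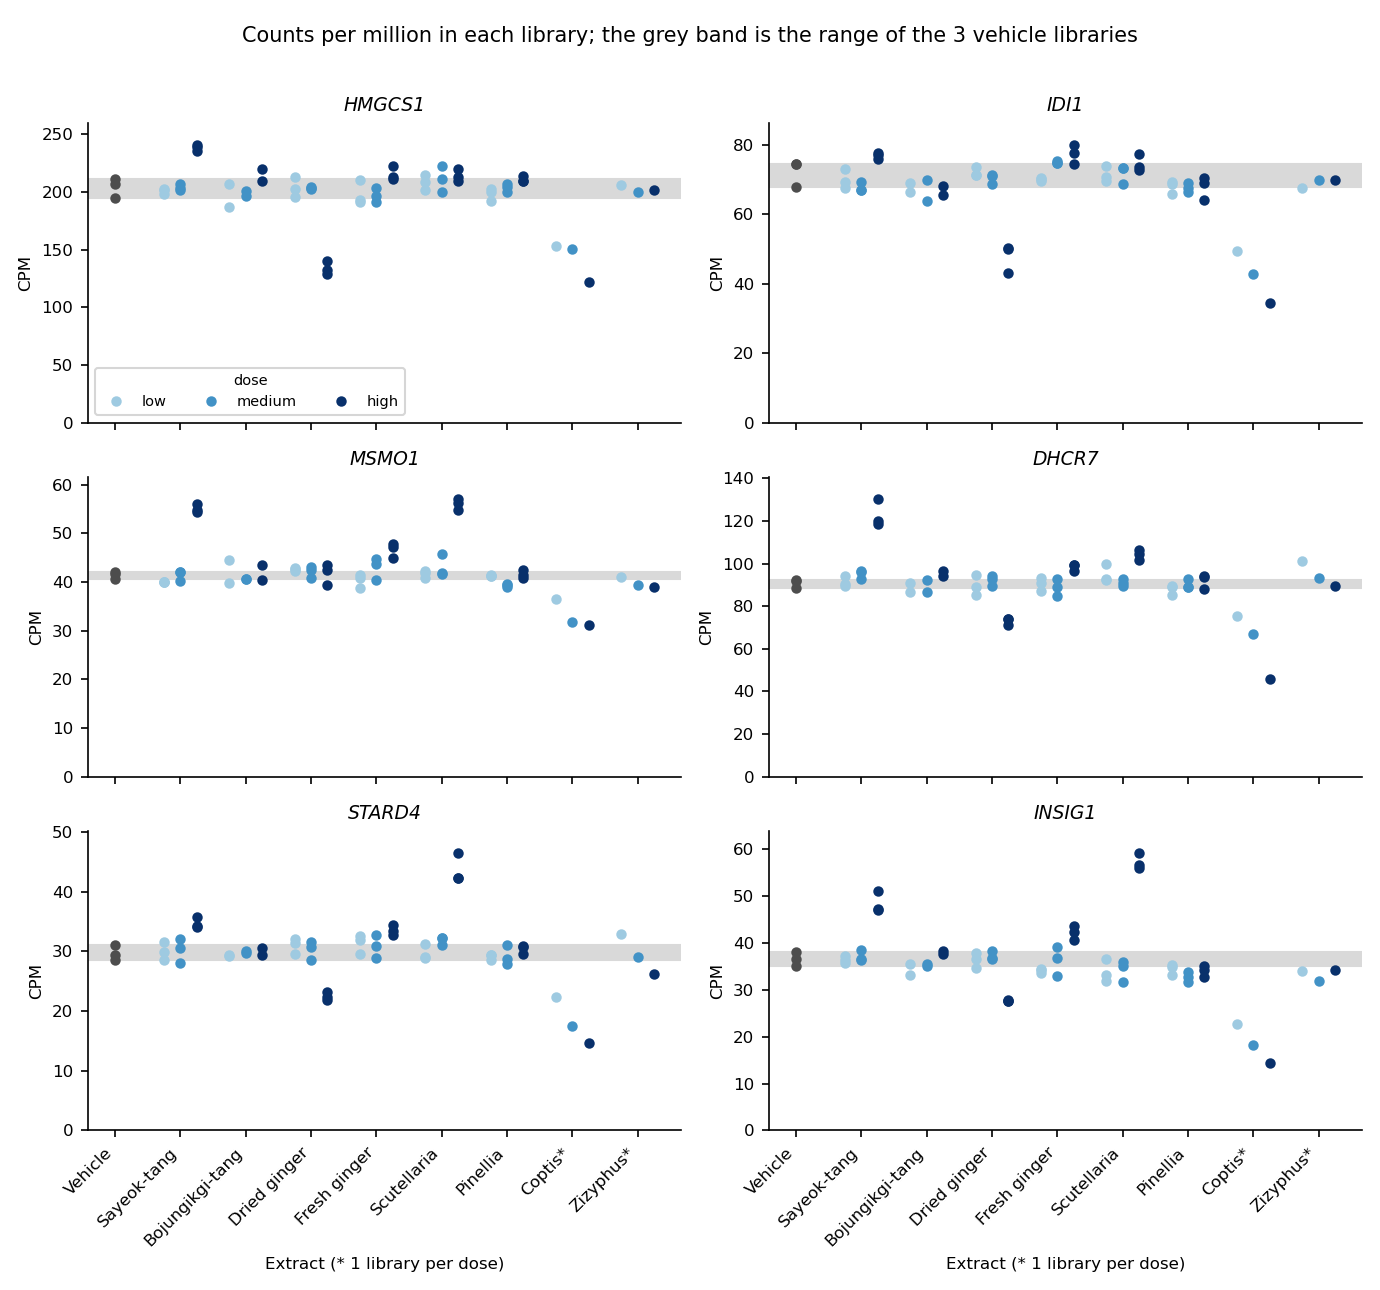
CPM of 6 members in each of the 60 libraries (vertical axis from 0) by extract, with low, medium and high doses as light, middle and dark points and the range of the 3 vehicle libraries as a grey band. High-dose points of Sayeok-tang lie above the band and those of dried ginger below it in HMGCS1, IDI1, DHCR7, STARD4 and INSIG1, while MSMO1 with dried ginger stays near the band.

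The comparisons between doses of Sayeok-tang, dried ginger and Scutellaria share no libraries, and their calls can be set side by side. The members that rose with Sayeok-tang and fell with dried ginger numbered 16, which is 84.2% of the 19 that rose and 88.9% of the 18 that fell. Over all 16331 genes tested in the 3 fits, 30 had this pattern, which is 4.72% of the 635 that rose and 1.14% of the 2642 that fell. Those that rose with both Sayeok-tang and Scutellaria numbered 11, 57.9% and 78.6% of the 2 lists, against 64.1% of the 635 and 15.9% of the 2556 genes that rose with each extract over all genes. Of the members, 9 (MVK, MVD, FDPS, SQLE, LSS, DHCR7, STARD4, INSIG1 and SREBF2) rose with both and fell with dried ginger. The share of all genes with this pattern was not computed. CYP51A1 and MSMO1 rose with both without falling with dried ginger, and PMVK, SC5D and SCAP were called with none of the 3. Of TM7SF2 and LBR, which share the sterol reductase step, TM7SF2 passed the test with Sayeok-tang and LBR with dried ginger, and the difference between them was not tested. TM7SF2 rose by 0.39 ± 0.11 with Sayeok-tang and was at 0.28 ± 0.12 with dried ginger (adjusted p = 0.0718), while LBR was at 0.01 ± 0.03 with Sayeok-tang and fell by 0.40 ± 0.04 with dried ginger. TM7SF2 shares 16 exonic bases with VPS51 on its own strand.

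MVD and MVK rose with Sayeok-tang and Scutellaria and fell with dried ginger, while PMVK was called with none of them. MVD, which decarboxylates mevalonate diphosphate, was at 21.7, 25.3 and 23.8 CPM at the high dose of Sayeok-tang, against 19.9, 18.3 and 18.3 CPM at the low dose. With dried ginger MVD was at 16.9, 16.2 and 14.8 CPM at the high dose, against 19.1, 20.0 and 21 CPM at the low dose, and with Scutellaria at 25.4, 27.1 and 24.8 CPM, against 19.1, 22.8 and 20.2 CPM. The changes were 0.31 ± 0.07, -0.33 ± 0.07 and 0.32 ± 0.06, and all 3 passed the test. MVK was at 27.9, 27.7 and 26.6 CPM at the high dose of Sayeok-tang, against 20.8, 22.3 and 21.6 CPM at the low dose (0.35 ± 0.06). It rose with Scutellaria (0.32 ± 0.06) and fell with dried ginger (-0.53 ± 0.06). MVK overlaps MMAB on the other strand, and the strand setting of the counting is not given in the sources used here, so some reads may belong to either gene. ACAT2 with TCP1 and GGPS1 with ARID4B carry the same limit. So do HMGCS1, IDI1, FDPS, FDFT1, LSS, CYP51A1, STARD4 and SREBF2, whose exons also overlap those of genes on the other strand.

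At the branch point of the isoprenoids, FDPS and GGPS1 make the diphosphates of farnesol and geranylgeraniol. FDPS, whose product feeds squalene, was at 110.1, 114 and 111 CPM at the high dose of Sayeok-tang, against 85.6, 89.3 and 88.5 CPM at the low dose (0.34 ± 0.03), and fell with dried ginger (-0.17 ± 0.04). GGPS1, whose product is used to modify proteins, was at 24.1, 27.02 and 26.3 CPM at the high dose of Sayeok-tang, against 28.2, 29.4 and 26.2 CPM at the low dose, and missed the threshold at -0.12 ± 0.06 (adjusted p = 0.237). With dried ginger GGPS1 was at 30.8, 31.6 and 33.1 CPM at the high dose, against 28.6, 28.6 and 27.6 CPM at the low dose, the rise that some of the alternatives above did not call. With Scutellaria both rose, FDPS by 0.23 ± 0.04 and GGPS1 by 0.19 ± 0.05.

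Of the late sterol enzymes, NSDHL, a decarboxylating dehydrogenase, rose by 0.18 ± 0.04 with Sayeok-tang and fell by 0.21 ± 0.05 with dried ginger. It was at -0.08 ± 0.05 with Scutellaria, which missed the threshold (adjusted p = 0.252). EBP rose by 0.16 ± 0.05 with Sayeok-tang, fell by 0.35 ± 0.06 with dried ginger and was at -0.07 ± 0.05 with Scutellaria (adjusted p = 0.334). SC5D, the sterol desaturase before DHCR7, was at 0.11 ± 0.06, -0.10 ± 0.05 and 0.00 ± 0.05 with these extracts and was called with none of them. SCAP, the escort of the SREBPs, was at -0.06 ± 0.04, -0.04 ± 0.04 and -0.05 ± 0.05 and was likewise not called. SCAP was at 60.9, 60.98 and 62.5 CPM at the high dose of Sayeok-tang, 61.7, 62.0 and 59.3 CPM with dried ginger and 62.0, 59.9 and 60.5 CPM with Scutellaria, against 66.3, 63.7 and 65.3 CPM in vehicle.

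Coptis, at 110 µg/mL, had lower values than vehicle for most members, with 1 library per dose and therefore no replicate check. By a rule of size (at least 1.5-fold after adding 0.5 CPM, a mean of at least 5 CPM, and a value outside the range of the vehicle libraries), 9 members were lower and 0 higher, where 3.41% of 10959 genes were lower and 3.86% higher. INSIG1 was at 35.1, 38.0 and 36.7 CPM in vehicle, 22.7 at the low, 18.2 at the medium and 14.3 CPM at the high dose. It was lower at every step, and its ratio to vehicle at the high dose was the farthest from 0 of the members, -1.32 on the log2 scale, followed by IDI1 (-1.06), STARD4 (-0.996) and DHCR7 (-0.98). DHCR7 was at 91.7, 88.6 and 92.3 CPM in vehicle, 75.3 at the low, 66.9 at the medium and 45.8 CPM at the high dose. In 20 of the 27 members the value fell at each step of dose, as it did in 29.2% of the 10984 genes that averaged 5 CPM or more.

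Already at 4.4 µg/mL, 22 members were below the vehicle range, against 35.6% of genes, and at the high dose 23 were, against 42.8% of genes. Between the high and low dose of Coptis, 4 members (MVK, DHCR7, STARD4 and INSIG1) were lower past 1.5-fold and 0 higher, where 1.52% of genes were lower and 1.85% higher. At 2-fold instead, 2 of the 9 and 0 of the 4 stayed past the rule. SREBF2 was at 68.7 CPM at the high dose, against 95.2 CPM at the low dose, a log2 ratio of -0.47. Mitochondrial transcripts took 15.0 and 15.9% of counts in the low-dose and medium-dose Coptis libraries and 9.92% in the high-dose one, against 8.58 to 9.38% in vehicle, and their part in the result was not tested. Zizyphus had 0 members past the rule against vehicle, where 0.192% of genes were past it in either direction, and 0 of the 26 with enough counts between its doses, where 0.165% were. INSIG1 was at 34.3 CPM at the high dose of Zizyphus, against 34.0 CPM at the low dose. Of the 26 members, 10 were below the vehicle range at the low dose of Zizyphus and 11 at the high dose, against 33.5% and 26.5% of 10930 genes. Values fell at each step in 7 of the 26, against 19.7% of genes.

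**Figure D4:**
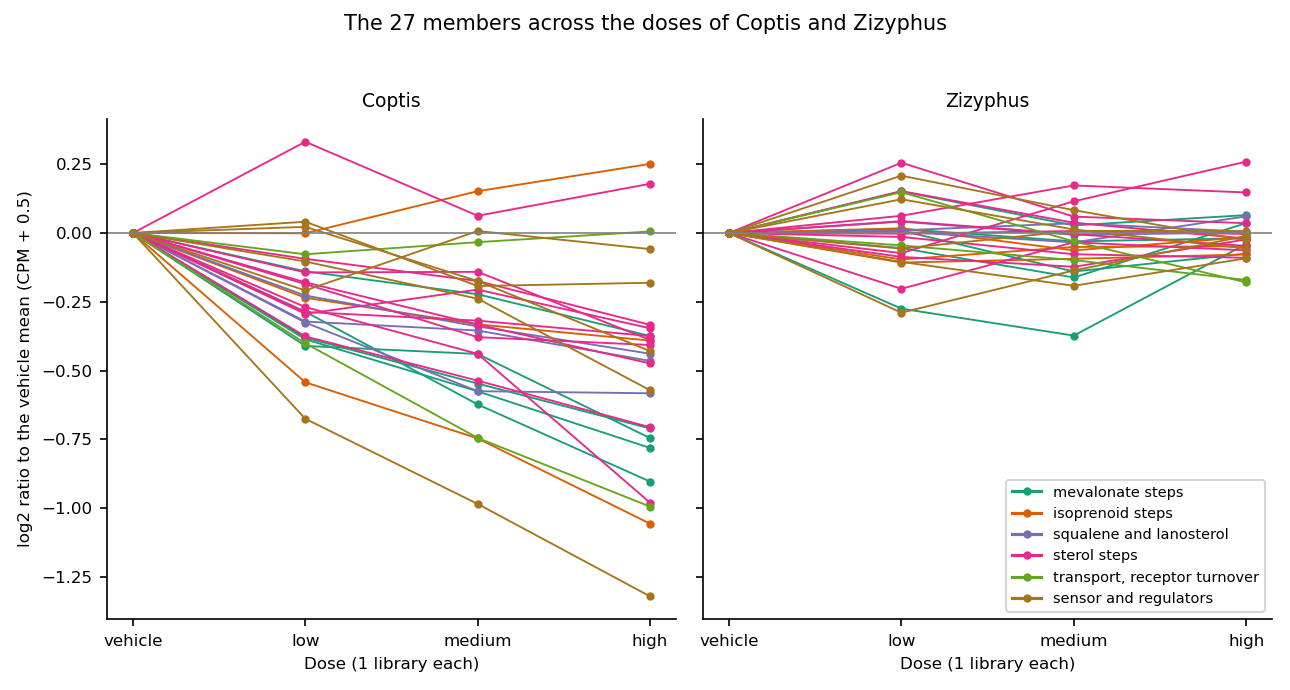
Log2 ratios of the 27 members to the vehicle mean (vertical axis, after adding 0.5 CPM) at the low, medium and high dose of Coptis on the left and Zizyphus on the right, 1 line per member, coloured by role, 1 library per dose. With Coptis most lines descend, down to -1.32 for INSIG1 at the high dose; with Zizyphus at the high dose the members stay between -0.18 and 0.26.

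PMVK, which makes mevalonate diphosphate, was lower than vehicle with nearly every extract and dose. It was called lower in 16 of the 18 comparisons of an extract dose with vehicle that had replicates, yet it was called in no comparison between doses. Of the 57 extract libraries, 56 were below the range of the vehicle libraries, which were at 25.5, 25.0 and 26.5 CPM. At the low dose PMVK was at 23.2, 20.9 and 21.03 CPM with Sayeok-tang, 19.2 and 18.5 with Bojungikgi-tang, 21.3, 21.4 and 22.2 with dried ginger, 21.2, 19.2 and 22.4 with fresh ginger, 22.5, 20.6 and 22.7 with Scutellaria and 22.4, 19.9 and 21.1 CPM with Pinellia. EBP was lower in 10 of the 18 comparisons and FDPS, the farnesyl diphosphate synthase, in 9. SREBF1 went the other way, higher in 7, with 51 of 57 extract libraries above the vehicle range, which was narrow (156.6 to 159.0 CPM). Other members were one-sided too. Below the range were 49 libraries for NSDHL, 46 for ACAT2, 44 for SCAP and 43 for MVD, and above it 43 for SC5D. The share of all genes with such counts was not computed. The 18 comparisons share the 3 vehicle libraries, so a trait of those libraries would recur in each of them.

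At the low doses, calls against vehicle were 6 members with Sayeok-tang, where 8.34% of all genes were called in either direction, 5 with Bojungikgi-tang (6.94% of genes), 1 with dried ginger (3.6%), 4 with fresh ginger (6.48%), 3 with Scutellaria (8.89%) and 2 with Pinellia (5.51%). At the medium doses they were 7 with Sayeok-tang (10.8% of genes), 2 with Bojungikgi-tang (1.94%), 4 with dried ginger (6.15%), 1 with Scutellaria (8.9%) and 4 with Pinellia (7.17%). Fresh ginger had 0 at the medium dose by edgeR and by DESeq2 (3 at an unadjusted p under 0.05), where 0.77% of genes were called. PMVK was among the calls at each of the 6 low doses, from -0.44 ± 0.07 with Bojungikgi-tang to -0.23 ± 0.06 with Scutellaria. No member outside ACAT2, PMVK, MVD, FDPS, EBP, SC5D and SREBF1 was called at a low dose. The members that changed most between doses, INSIG1 with Scutellaria, MSMO1 with Sayeok-tang and HMGCS1 with dried ginger, were not among them.

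Several of these counts rested on single libraries. Without vehicle replicate 1 the count at the low dose of dried ginger became 2. Without vehicle replicate 2, the low-dose counts became 3 with Sayeok-tang, 2 with dried ginger, 1 with fresh ginger and 1 with Pinellia, and the medium-dose counts 1 with Bojungikgi-tang, 2 with dried ginger and 2 with Pinellia. Without vehicle replicate 3 they became 0 with dried ginger, 1 with fresh ginger and 1 with Pinellia at the low dose, and 1 with dried ginger and 2 with Pinellia at the medium dose. Among low-dose libraries, the counts became 2 without Sayeok-tang replicate 3, 2 or 1 without Bojungikgi-tang replicate 2 or 3, 0 without dried ginger replicate 1 or 2, 1 without fresh ginger replicate 1 or 2, 1 without Scutellaria replicate 2, and 0 or 1 without Pinellia replicate 2 or 3. Among medium-dose libraries, they became 0 or 1 without Bojungikgi-tang replicate 2 or 3, 2, 1 or 2 without dried ginger replicate 1, 2 or 3, 3 without Scutellaria replicate 1, and 2, 1 or 2 without Pinellia replicate 1, 2 or 3.

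**Figure D5:**
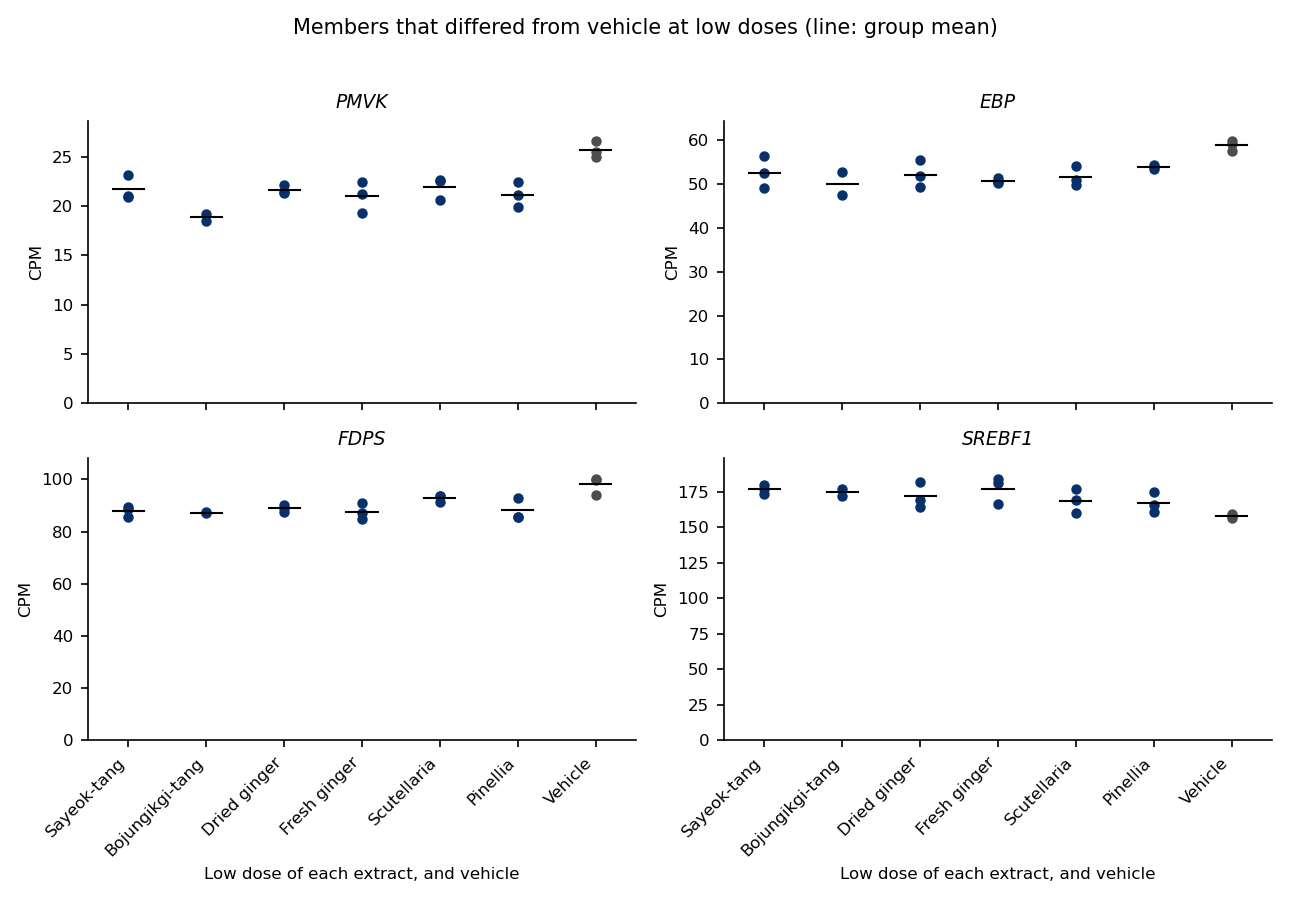
CPM of PMVK, EBP, FDPS and SREBF1 in each library (points) at the low dose of the 6 extracts with replicates and in vehicle at the right, with the group mean as a line and the axis from 0. All low-dose points of PMVK (18.5 to 23.2 CPM) and of EBP lie under the vehicle points, and those of SREBF1 lie above them.

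Other lists of genes near the pathway were followed in the same fits. Fatty acid synthesis genes, which SREBP1 controls, rose in 5 of 8 with the high against the low dose of Sayeok-tang (3.82% of all genes), with the desaturase SCD at 0.32 ± 0.03 and FADS1 at 0.31 ± 0.03. They fell in 5 of 8 with dried ginger (16% of all genes), among them FADS2 (-0.48 ± 0.04) and the synthase FASN (-0.39 ± 0.05), and rose in 4 of 8 with Scutellaria (15.5% of all genes), led by SCD (0.47 ± 0.04). Of 10 further genes of SREBP handling or sterol regulation, 1 was higher (3.82% of all genes) and 0 lower with Sayeok-tang. With dried ginger 1 was higher and 2 lower (16%), and with Scutellaria 2 were higher (15.5%) and 1 lower. The remaining shares of all genes are given above, and the counts with dried ginger and Scutellaria were near the shares. Among the 10 genes, the sterol-responsive membrane protein TMEM97 rose by 0.15 ± 0.03 with Sayeok-tang. It fell by 0.26 ± 0.03 with dried ginger and by 0.22 ± 0.03 with Scutellaria. The others called were ERLIN2 (0.21 ± 0.05) and ERG28 (-0.18 ± 0.07) with dried ginger, and ERLIN2 (0.18 ± 0.04) and MBTPS2 (0.11 ± 0.04) with Scutellaria.

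Genes of cell division moved with some of these results. All 5 proliferation genes (MKI67, TOP2A, CCNB1, CDK1 and TK1) were lower at the high than at the low dose of dried ginger, with a median of -0.47, and of Scutellaria, with a median of -0.42. All 5 were also lower with dried than with fresh ginger at 500 µg/mL, with a median of -0.41. With Sayeok-tang their median was -0.08, and the lowest adjusted p, that of TOP2A, was 0.104. The shares of all genes called lower in these comparisons are given above. The part of the proliferation genes in the results was not tested. The summed fibroblast markers, nearly all of it COL1A1, were also lower at these high doses. They summed to 24.4 to 26.5 CPM at the high dose of Sayeok-tang, against 32.3 to 34.1 CPM at the low dose. With dried ginger they summed to 19.0 to 20.3 CPM at the high dose, against 29.2 to 34.4 CPM at the low dose, and with Scutellaria to 20.7 to 23.1 CPM at the high dose, against 28.0 to 33.2 CPM at the low dose. The summed leukocyte markers, mostly CD14, reached at most 2.72 CPM in a library, and the part of either list was not tested.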

How the data were processed

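Gene values were the authors' deposited expected counts, made with RSEM 1.3.3 after STAR 2.7.3a, Trim Galore 0.6.5 and FastQC 0.11.9 on hg38, per the submitters' processing notes. The annotation release and the strand setting of the counting are not given in the sources used here. Of the non-zero counts, 24.35% were not whole (tolerance 1e-06), and all were rounded. Of 269 value columns, 60 matched the samples and 209 were not used. The 60 libraries form 25 groups (vehicle and 8 extracts at 3 doses), with totals of 17513485 to 38541686 counts.

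Each pair of extracts that share a set number was fitted with vehicle in edgeR 4.0.16 (limma 3.58.1, R 4.3.3), with trimmed-mean normalisation, filterByExpr at a minimum count of 10, a robust quasi-likelihood fit and Benjamini-Hochberg adjustment over all genes, at a threshold of 0.05. CPM were scaled over the 60 libraries. Exon lengths came from GENCODE release 29 on GRCh38. Coptis and Zizyphus had no test. Alternatives were other size factors, no filter, DESeq2 1.42.0, a fit of all libraries, a replicate block, each replicate left out, and for single libraries another fold, pseudocount or minimum. The steps were tested on simulated data.

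The members and lists were chosen with earlier results of these data known. Values per library were given for the 4 members with the lowest p at the high doses; other members with such values were chosen after their values were seen. Replicates of a group differed beyond sampling noise in every group.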

Additional observations from a re-analysis of the deposited data

Results flagged for a closer look

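In 2 pairs of extracts the change of the members between the high and the low dose differed by a test of the difference itself. Between Sayeok-tang and Bojungikgi-tang it differed in 6 of 27 members by edgeR's quasi-likelihood test (adjusted p under 0.05), all with the more positive change in Sayeok-tang. MSMO1 had the largest difference, 0.48 ± 0.07 (adjusted p = 0.000119). Between dried and fresh ginger it differed in 19 of 27 members, all with the more negative change in dried ginger, and HMGCS1, with the lowest p, differed by -0.72 ± 0.06 (adjusted p = 2.57e-09). The shares of all genes called in each direction by these 2 tests are given with the direct comparisons above, and the counts of members are to be read beside them.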

How the results depend on the processing

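Of the recomputed log2 changes of named members, 578 kept their direction and their side of the threshold, 16 passed it newly and 6 lost it, all with fresh ginger. None reversed. Of the counts of called members, 240 stayed within 1.5 times and 56 did not. The counts below are set beside those of the report, and the cause of each move was not tested. With DESeq2, Bojungikgi-tang at the medium dose against vehicle had 1 (2), fresh ginger high against low 4 (2) and dried ginger low against vehicle 2 (1). With all libraries in one fit, fresh ginger high against low had 7 and dried ginger low against vehicle 5. Without the filter, the counts against vehicle were 2 for dried ginger low, 3 (1) for Pinellia high and 2 (1) for Scutellaria medium. At 2-fold, Coptis high had 2 (9) against vehicle and 0 (4) against low, and 2 in the second with a pseudocount of 2 CPM.

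Leaving out a replicate in turn, counts against vehicle ran from 2 to 5 for Sayeok-tang low, from 0 to 2, 0 to 3 and 1 to 6 for Bojungikgi-tang high, medium and low, from 1 to 6 and 1 to 3 for fresh ginger high and low, from 1 to 3 and 0 to 2 for dried ginger medium and low, from 1 to 3, 1 to 5 and 0 to 2 for Pinellia high, medium and low, and from 1 to 3 for Scutellaria medium and low. Fresh ginger high against low ran from 1 to 5, and Sayeok-tang against Bojungikgi-tang from 10 to 13. Where this left Bojungikgi-tang with 1 library, that library was assumed to vary like the others.

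Replicate numbers did not meet the rule that every same-numbered pair correlate above 0.1, a strict rule, so failing it does not exclude pairing. Deviations of same-numbered extract libraries had mean correlations of 0.005, 0.067 and 0.009 in the 3 fits, against -0.003, -0.033 and -0.005 for different numbers. Their lowest were -0.053, -0.071 and -0.048. In the ginger fit the highest was 0.212, and SREBF1 was lowest in replicate 3 in 6 of 6 ginger groups, a hint from the data and not from the design. SREBF1 was also lowest in replicate 3 at the high, medium and low dose of Sayeok-tang (170.7, 165.5 and 173.6 CPM). The same held at the high and medium doses of Pinellia (161.7 and 164.3 CPM) and Scutellaria (198.5 and 159.3 CPM). It did not hold at the low dose of Pinellia or Scutellaria or in vehicle. With Bojungikgi-tang, replicate 3 was below replicate 2 at the high and medium doses but not at the low dose. With a replicate block, Bojungikgi-tang high against vehicle had 2 calls (0), fresh ginger high against low 5 (2) and dried ginger low against vehicle 3 (1).

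The number of libraries limits precision, most in Bojungikgi-tang, Coptis and Zizyphus.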

Other observations

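Enzymes that use the isoprenoids made by the pathway were followed as a list. Of 10 such genes, 1 rose and 3 fell between the high and the low dose of dried ginger, where 16.8% of all genes rose and 16% fell. DHDDS, a subunit of the enzyme that makes dolichol precursors, rose by 0.29 ± 0.06 (adjusted p = 0.000498), while its partner NUS1 fell by 0.19 ± 0.05 (adjusted p = 0.00173). COQ2, which attaches the side chain of coenzyme Q, fell by 0.26 ± 0.05 (adjusted p = 0.000457), and the farnesyltransferase subunit FNTB fell by 0.22 ± 0.05 (adjusted p = 0.00214). With Scutellaria FNTB fell as well, by edgeR's test at -0.28 ± 0.06 (adjusted p = 0.000362). With Sayeok-tang the lowest adjusted p of the list, that of RABGGTB, was 0.103 by edgeR.

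Of 6 genes of sterol storage, export and liver X receptor response, ABCG1, a sterol exporter, rose with Scutellaria from a low level. It was at 1.11, 1.40 and 1.58 CPM at the high dose, against 0.972, 0.673 and 0.633 CPM at the low dose, a change of 0.85 ± 0.26 (adjusted p = 0.00867). The libraries did not overlap. With dried ginger SOAT1, which esterifies cholesterol, fell by 0.19 ± 0.05 (adjusted p = 0.00286), and ABCG1 missed the threshold against the low dose, at 0.65 ± 0.27 (adjusted p = 0.0656). At the high dose of dried ginger ABCG1 was higher than in vehicle (1.20 ± 0.28 (adjusted p = 0.00115)) and than with fresh ginger at the same dose (0.93 ± 0.28 (adjusted p = 0.0169)). SMPDL3A, another gene of the list, was higher in both comparisons too, by 0.62 ± 0.20 (adjusted p = 0.0126) and 0.70 ± 0.20 (adjusted p = 0.0133). In each of them 2 of the 6 genes were higher and 1, SOAT1, was lower. The shares of all genes called in these comparisons are given above.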
